A study of Mus musculus with 10 samples.

Results

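The 77 genes described here carry symbols of mitochondrial ribosomal proteins, 48 of the large subunit (symbols starting Mrpl) and 29 of the small subunit (Mrps). They are the protein-coding rows, of 31285 genes in the deposited table, whose symbol is Mrpl or Mrps followed by a digit; 4 processed pseudogenes with such symbols were left out. Their transcripts were measured by RNA sequencing of inguinal (subcutaneous) white adipose tissue from 20-month-old mice kept on regular chow. Ad-GHRKO mice, 5 libraries, lack the growth hormone receptor in adipose tissue according to the series, while the sample labels call the same genotype GHR Knockdown. Flox mice, also 5 libraries, are the comparison genotype. The labels name neither the promoter that drives the deletion nor the sex of the mice, and do not say whether each library is a separate animal, so p-values measure the spread between these libraries. Levels are in FPKM, the fragments per kilobase of gene, scaled to the total of the library. Subunits are named by symbol unless stated, also for Mrps18a, Mrps30 and Mrps36, which do not encode small subunit proteins.

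Mitochondria translate the few proteins that their own genome encodes on ribosomes of their own. The ribosomal RNAs come from mitochondrial DNA, and every protein of both subunits is encoded in the nucleus, made in the cytosol and imported. Some of these proteins have homologues in bacterial ribosomes and others are found only in mitochondria. The products of this translation are core subunits of the respiratory chain and ATP synthase, and white adipocytes depend on mitochondria for fatty acid oxidation and lipid synthesis.

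Ghr, the targeted receptor, had 15.1, 20.1, 13.0, 16.7 and 17.9 FPKM in Ad-GHRKO libraries 1 to 5, against 72.9, 129.8, 89.7, 80.9 and 94.1 FPKM in Flox libraries 1 to 5, so the groups did not overlap. Its log2 change was -2.41 (limma adjusted p = 6.5e-05). Depth was between 14.6 M and 19.2 M reads (M, mega). All 9 adipocyte markers were detected in every library. Skeletal muscle transcripts varied between libraries within both genotypes: 26 muscle genes held 18.4% of the reads in Ad-GHRKO 1, 10.4% in Flox 5 and 7.29% in Flox 3, 0.239% in Ad-GHRKO 5 and under 0.02% in the other 6. In bulk tissue, fewer cells of a type and less RNA per cell cannot be told apart. The part of muscle in the results below was not tested, and results without these libraries are given where they differ.

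Transcripts of both subunits were lower in Ad-GHRKO adipose tissue as a set of values, by a modest amount that few single genes carried past the test. Of the 48 large subunit genes, 47 had a negative log2 change and the median change was -0.27. Of the 28 small subunit genes tested, 25 had a negative log2 change and the median was -0.28. Over all 12785 genes tested, 44.3% had a negative change and the median was 0.04. After Benjamini-Hochberg adjustment over all of them in limma, Mrpl12 and Mrps15 fell and no member rose, against a background of 1.42% of all genes called lower and 0.774% called higher. At an unadjusted p under 0.05, 21 of 48 large subunit genes (43.75%) and 13 of 28 small subunit genes (46.4%) were lower and none was higher, against 8.49% of all genes lower and 7.86% higher.

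**Figure D1:**
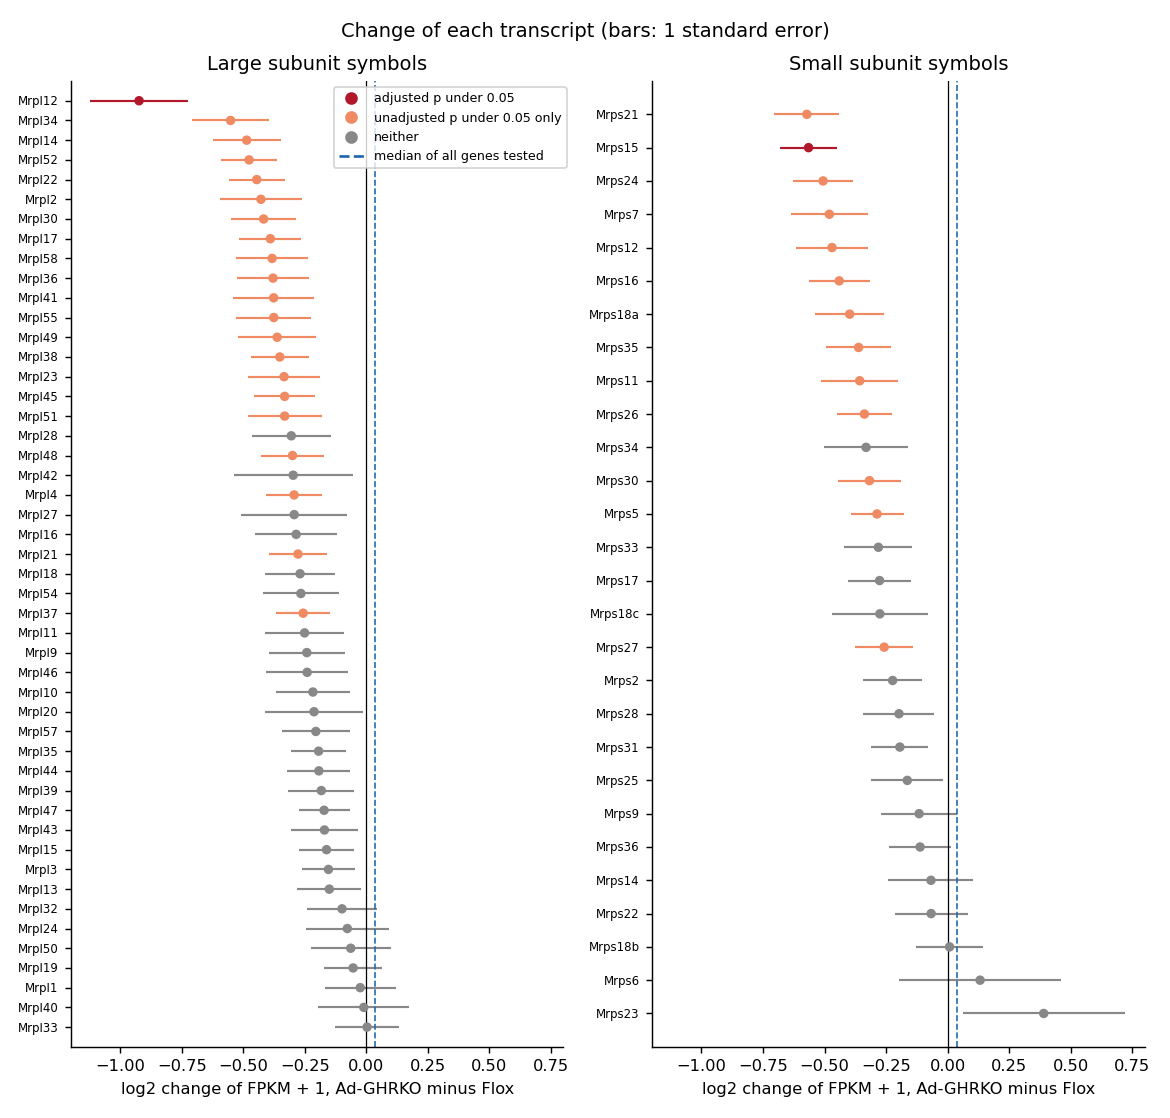
Log2 change of FPKM + 1 in Ad-GHRKO over Flox for each mitochondrial ribosomal protein gene, large subunit symbols on the left and small on the right, with bars of 1 standard error (n = 5 libraries per genotype). Points run from -0.92 for Mrpl12 to 0.39 for Mrps23, and 72 of the 76 lie below 0.

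Mrpl12 encodes the homologue of a bacterial stalk protein of the large subunit and has also been reported to bind the mitochondrial RNA polymerase. It had 18.7, 13.9, 13.1, 15.4 and 8.62 FPKM in Ad-GHRKO libraries 1 to 5, against 21.3, 25.9, 28.6, 23.7 and 35.6 FPKM in Flox libraries 1 to 5. Every Ad-GHRKO library lay below every Flox library, and the nearest were Ad-GHRKO 1 and Flox 1. The means were 14.0 ± 3.68 FPKM in Ad-GHRKO and 27.0 ± 5.51 FPKM in Flox (SD, n = 5 each). The log2 change was -0.92 (SE 0.20) with an adjusted p of 0.0383 in limma, and -0.92 was the lowest of all members. The exact two-sided permutation p of 0.00794, unadjusted for the choice of the gene, is the smallest that 252 assignments of the libraries can give and follows from the lack of overlap. The adjusted p ran from 0.0055 to 0.166 over 26 alternative settings, of which 11 kept it past the threshold. It did not pass when any of 8 libraries was left out, all but Ad-GHRKO 1 and Flox 1, with log2 changes between -1.03 and -0.77 over all 10 omissions. The muscle-rich libraries Flox 5, Flox 3 and Ad-GHRKO 1 were the highest of their genotypes for Mrpl12, while Ad-GHRKO 5, with fewer muscle reads, was the lowest. Without the 3 muscle-rich libraries the log2 change was -0.86. Without the 4 libraries with muscle reads it was -0.70, the smallest fall among the 26 alternatives. Mrpl12 passed the threshold in both fits. The exons of Mrpl12 share 200 bases, 13.05% of its exon length, with an antisense RNA gene, Gm16755, and whether counting used strand is not stated.

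Mrps15 encodes a small subunit protein with a bacterial homologue that binds ribosomal RNA. Its level was 24.4, 25.4, 21.9, 27.7 and 25.1 FPKM in the Ad-GHRKO libraries, against 33.6, 43.3, 36.0, 35.1 and 38.6 FPKM in the Flox libraries. Both groups were tight and did not overlap. The means were 24.9 ± 2.10 FPKM in Ad-GHRKO and 37.4 ± 3.80 FPKM in Flox (SD, n = 5 each), a log2 change of -0.56 (SE 0.12, limma adjusted p = 0.0322). Here too the call held in 2 of the 10 fits that left out a library, without Flox 1 and without Ad-GHRKO 1, and the adjusted p over those fits ran from 0.0172 to 0.104. Over all 26 alternatives it passed in 13, with an adjusted p from 0.0114 to 0.135 and a log2 change between -0.60 and -0.46.

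The promoter sequences of these 2 genes are shown because they are the members that passed the test, and that of Mrpl52 because it is the large subunit gene next to them by p. Each is the part of the RefSeq window before the start of the gene that lies in no annotated exon, on the plus strand of GRCm38.p6, with any match to the motifs described further down in capitals: in Mrpl12 an NRF1 motif that begins 81 bases before the RefSeq start, which lies 24 bases beyond the gene start in the deposited table, in Mrpl52 an ETS motif that begins 47 bases before its start, both read on the minus strand, and none in Mrps15.
Mrpl12, chr11:120484387-120484612: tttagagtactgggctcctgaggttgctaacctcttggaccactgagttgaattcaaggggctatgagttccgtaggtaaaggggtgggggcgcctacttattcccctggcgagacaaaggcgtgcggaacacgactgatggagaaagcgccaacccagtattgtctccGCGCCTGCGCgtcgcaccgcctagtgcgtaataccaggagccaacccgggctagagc
Mrps15, chr4:126046678-126046924: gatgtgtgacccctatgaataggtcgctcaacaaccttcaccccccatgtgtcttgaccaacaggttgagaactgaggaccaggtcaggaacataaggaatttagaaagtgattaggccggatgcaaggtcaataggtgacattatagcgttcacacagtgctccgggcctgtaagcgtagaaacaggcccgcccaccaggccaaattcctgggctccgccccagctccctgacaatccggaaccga
Mrpl52, chr14:54426659-54426908: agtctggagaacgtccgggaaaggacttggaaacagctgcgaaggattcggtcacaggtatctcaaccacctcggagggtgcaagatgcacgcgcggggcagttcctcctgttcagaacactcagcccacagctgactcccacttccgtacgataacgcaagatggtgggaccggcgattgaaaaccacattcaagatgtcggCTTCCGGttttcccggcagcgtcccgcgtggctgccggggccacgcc

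In the large subunit, 5 genes had every Ad-GHRKO library below every Flox library, Mrpl12, Mrpl52, Mrpl22, Mrpl30 and Mrpl38, and none had the reverse. Among all genes tested this was so for 3.35%, with 1.62% the other way. Mrpl52, a protein found only in mitochondrial ribosomes, had 22.5, 21.1, 20.1, 21.1 and 19.3 FPKM in Ad-GHRKO libraries, against 31.6, 30.3, 25.7, 33.2 and 26.6 FPKM in Flox libraries. Its groups were separated by the gap between Ad-GHRKO 1 and Flox 3, and its log2 change of -0.48 (SE 0.11) missed the threshold with a limma adjusted p of 0.0555. Mrpl22, whose bacterial homologue lines the tunnel through which the new protein leaves, had 12.3, 14.2, 13.6, 14.0 and 11.6 FPKM in Ad-GHRKO libraries, against 15.9, 16.8, 19.6, 19.3 and 19.8 FPKM in Flox libraries. Its highest Ad-GHRKO library, Ad-GHRKO 2, was below its lowest Flox library, Flox 1, for a log2 change of -0.45 (adjusted p = 0.0698). Without the 3 muscle-rich libraries the change of Mrpl22 was -0.35, and without the 4 libraries with muscle reads it was -0.29. Mrpl30 averaged 16.3 ± 2.05 FPKM in Ad-GHRKO and 22.1 ± 3.03 FPKM in Flox (SD, n = 5 each) with a log2 change of -0.42. Mrpl38 averaged 20.8 ± 1.98 FPKM in Ad-GHRKO and 26.9 ± 2.84 FPKM in Flox (SD, n = 5 each) with a log2 change of -0.35, and neither passed the test.

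Further large subunit genes with small p had overlapping libraries. Mrpl34 had 32.8, 35.6, 33.1, 40.6 and 29.6 FPKM in Ad-GHRKO libraries, against 46.9, 67.0, 39.4, 48.5 and 54.8 FPKM in Flox libraries. Its overlap was a single pair, Ad-GHRKO 4 above Flox 3, and its log2 change was -0.55 (limma adjusted p = 0.0988). Mrpl14 had 21.9, 17.9, 16.4, 16.9 and 13.5 FPKM in Ad-GHRKO libraries, against 23.8, 24.2, 21.7, 24.3 and 28.3 FPKM in Flox libraries. Ad-GHRKO 1 was the library that reached into the Flox range, just above Flox 3, and the log2 change of Mrpl14 was -0.49 (adjusted p = 0.102). Without Ad-GHRKO 1 its change was -0.57 with an adjusted p of 0.0172. Mrpl17 had a log2 change of -0.39, from 6.85 ± 0.844 FPKM in Ad-GHRKO and 9.30 ± 1.24 FPKM in Flox (SD, n = 5 each).

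Levels per kilobase differed widely within the large subunit, between means over all 10 libraries of 50.6 FPKM for Mrpl2 and 1.39 FPKM for Mrpl33. Mrpl2, part of the core around the peptidyl transferase centre, averaged 43.4 ± 9.27 FPKM in Ad-GHRKO and 57.8 ± 5.65 FPKM in Flox, a log2 change of -0.43 (adjusted p = 0.226). Next in level were Mrpl34, Mrpl54 and Mrpl28; Mrpl54 had a log2 change of -0.27 and Mrpl28 one of -0.31. At the low end, Mrpl47 averaged 2.14 ± 0.259 FPKM in Ad-GHRKO and 2.53 ± 0.197 FPKM in Flox, and Mrpl43 averaged 2.50 ± 0.220 FPKM in Ad-GHRKO and 2.98 ± 0.659 FPKM in Flox (SD, n = 5 each). None of these passed the test.

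The members with the highest log2 changes in the large subunit were Mrpl33, Mrpl40 and Mrpl1, which lay close to 0. Mrpl33 had 0.955, 1.22, 1.65, 1.46 and 1.67 FPKM in Ad-GHRKO libraries, against 1.63, 1.58, 1.17, 1.48 and 1.05 FPKM in Flox libraries. The groups lay in the same range, and its log2 change of 0.00 was the only one above 0 in the large subunit. Its sign turned under 8 alternatives other than omissions of a single library. Mrpl40 averaged 16.9 ± 3.65 FPKM in Ad-GHRKO and 16.9 ± 3.26 FPKM in Flox (SD, n = 5 each).

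In the small subunit, 6 of the 28 genes tested had every Ad-GHRKO library below every Flox library, Mrps15, Mrps21, Mrps24, Mrps26, Mrps5 and Mrps27, and none had the reverse, against 3.35% and 1.62% of all genes. Mrps21, the most abundant member of either subunit with a mean of 60.0 FPKM, had 53.8, 53.4, 40.9, 49.7 and 42.9 FPKM in Ad-GHRKO libraries, against 69.0, 74.98, 60.6, 75.5 and 79.3 FPKM in Flox libraries. Its highest Ad-GHRKO library was below its lowest Flox library, Flox 3, and its log2 change was -0.57 (SE 0.13) with a limma adjusted p of 0.0505. Mrps24 had 28.3, 25.8, 23.1, 26.7 and 20.2 FPKM in Ad-GHRKO libraries, against 36.3, 37.3, 33.5, 32.3 and 38.1 FPKM in Flox libraries. The groups of Mrps24 stood apart and its log2 change was -0.51 (adjusted p = 0.0584). Mrps24 shares 226 exon bases on its own strand with Urgcp, so its reads may be split with that gene.

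Mrps12 encodes the small subunit protein at the decoding centre, where codon and tRNA are matched. It had 30.4, 25.3, 24.4, 26.9 and 19.9 FPKM in Ad-GHRKO libraries, against 32.9, 42.3, 28.8, 35.8 and 37.6 FPKM in Flox libraries. Ad-GHRKO 1 was above Flox 3 and the other Ad-GHRKO libraries were below all Flox libraries. The means were 25.4 ± 3.83 FPKM in Ad-GHRKO and 35.5 ± 5.07 FPKM in Flox (SD, n = 5 each), and the log2 change of -0.47 (SE 0.15) had a limma adjusted p of 0.133. Its exact two-sided permutation p was 0.0159, unadjusted for the choice of the gene. Without Ad-GHRKO 1 the change was -0.54 (adjusted p = 0.0390), and the adjusted p ran from 0.0229 to 0.295 over 26 alternatives.

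Mrps16, a small subunit protein with a bacterial homologue, had 9.14, 9.23, 8.05, 9.95 and 8.45 FPKM in Ad-GHRKO libraries, against 14.3, 14.3, 9.91, 12.1 and 12.4 FPKM in Flox libraries. Its overlap came from Ad-GHRKO 4 and Flox 3, which were nearly equal, and its log2 change was -0.44 (adjusted p = 0.1005). Mrps7, which binds ribosomal RNA early in subunit assembly in bacteria, averaged 30.6 ± 3.55 FPKM in Ad-GHRKO and 43.5 ± 8.68 FPKM in Flox (SD, n = 5 each), a log2 change of -0.48 (adjusted p = 0.150). Mrps26, found only in mitochondrial ribosomes, averaged 7.21 ± 0.364 FPKM in Ad-GHRKO and 9.43 ± 1.25 FPKM in Flox (SD, n = 5 each), with a log2 change of -0.34. Mrps35 and Mrps18c, among the lowest of the subunit, had log2 changes of -0.36 and -0.28. None of these passed the test. Mrps18c passed under 1 alternative, without the 4 libraries with muscle reads (limma adjusted p = 0.0312).

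The small subunit held the 3 members with the highest changes of all, none past the test. Mrps23, found only in mitochondrial ribosomes, had 6.69, 12.4, 7.50, 5.89 and 10.9 FPKM in Ad-GHRKO libraries, against 9.90, 5.21, 11.4, 2.44 and 5.39 FPKM in Flox libraries. The libraries of both genotypes were scattered over the same range, with a log2 change of 0.39 (SE 0.33, adjusted p = 0.619). Mrps6 had 17.6, 36.7, 25.1, 37.0 and 29.1 FPKM in Ad-GHRKO libraries, against 30.5, 53.8, 13.7, 26.5 and 17.9 FPKM in Flox libraries, a log2 change of 0.13 (SE 0.33). Its highest and lowest libraries were both Flox, and its exons overlap those of Slc5a3 and Gm49711 on the same strand, so its reads may be shared with theirs. Without the 3 muscle-rich libraries the Mrps6 value was -0.15. Mrps18b averaged 5.59 ± 0.718 FPKM in Ad-GHRKO and 5.59 ± 0.971 FPKM in Flox (SD, n = 5 each), with a log2 change of 0.01 that turned negative under some alternatives.

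**Figure D2:**
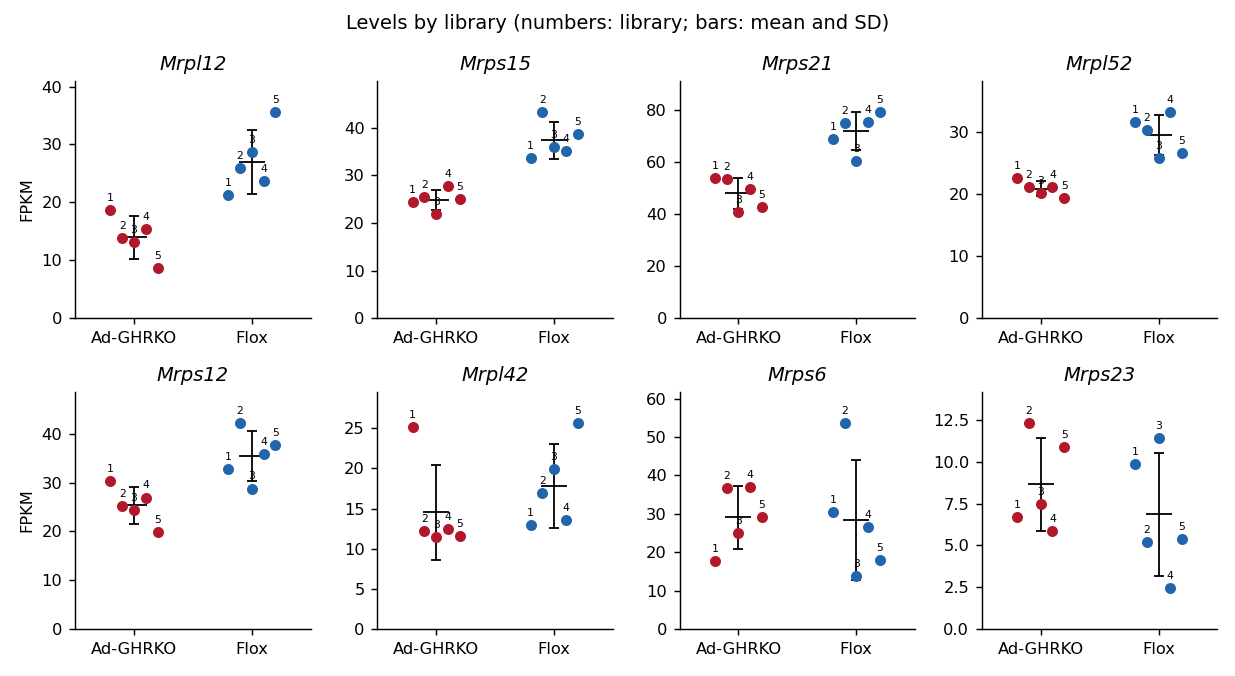
FPKM of 8 mitochondrial ribosomal protein genes in each library, Ad-GHRKO in red and Flox in blue, numbered by library, with the mean and SD of each genotype (n = 5). Mrpl12, Mrps15, Mrps21 and Mrpl52 do not overlap between genotypes. Ad-GHRKO 1 is the highest library of its genotype for Mrps12 (30.4 FPKM) and Mrpl42 (25.1 FPKM), and also for Mrpl12, Mrpl52 and Mrps21.

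Mrps10 was the only member that did not reach 1 FPKM in 5 libraries and was not tested. It was measured at 0.034, 0.142, 0.321, 0.276 and 0.119 FPKM in Ad-GHRKO libraries, against 0.164, 0.381, 0.133, 0.222 and 0.0975 FPKM in Flox libraries. These low values rest on 5 to 55 reads per library, and the groups overlapped over nearly their whole range.

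Symbols do not always name the subunit in which a protein sits. Mrps18a and Mrps30 occupy the large subunit in structures of mammalian mitochondrial ribosomes, and Mrps36 is now regarded as a component of the 2-oxoglutarate dehydrogenase complex. Mrps18a averaged 9.55 ± 1.45 FPKM in Ad-GHRKO and 12.9 ± 1.89 FPKM in Flox, with a log2 change of -0.40. Mrps30 averaged 2.37 ± 0.299 FPKM in Ad-GHRKO and 3.22 ± 0.625 FPKM in Flox, with a change of -0.32. Mrps36 averaged 11.9 ± 1.20 FPKM in Ad-GHRKO and 13.0 ± 1.89 FPKM in Flox, with a change of -0.11 (SD, n = 5 each for all 3). When genes were sorted by structure, the 50 large subunit genes had a median log2 change of -0.28 with 49 negative, and the 25 small subunit genes also had a median of -0.28 with 22 negative. The 45 genes with a bacterial homologue had a median of -0.28 and the 30 found only in mitochondria one of -0.27.

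The same values can be read library by library. The mean log2(FPKM + 1) over the 48 large subunit genes was 3.53, 3.64, 3.48, 3.67 and 3.58 in Ad-GHRKO libraries 1 to 5, against 3.82, 4.05, 3.66, 3.87 and 3.88 in Flox libraries 1 to 5. Ad-GHRKO 4 was slightly above Flox 3, and the other Ad-GHRKO libraries were below all Flox libraries. The mean over the 28 small subunit genes was 3.26, 3.42, 3.23, 3.41 and 3.33 in Ad-GHRKO libraries, against 3.62, 3.79, 3.40, 3.54 and 3.57 in Flox libraries. Here Ad-GHRKO 2 and Ad-GHRKO 4 were slightly above Flox 3. The genotype means of these levels were 3.58 ± 0.078 in Ad-GHRKO and 3.86 ± 0.141 in Flox for the large subunit. They were 3.33 ± 0.087 in Ad-GHRKO and 3.59 ± 0.142 in Flox for the small subunit (SD, n = 5 each). Minus the mean over all genes tested, the large subunit level was 0.477 ± 0.154 in Ad-GHRKO and 0.786 ± 0.175 in Flox. The small subunit level less that mean was 0.229 ± 0.150 in Ad-GHRKO and 0.516 ± 0.163 in Flox (SD). Ad-GHRKO 1, with the most muscle reads, was then highest of its genotype. It was above Flox 3 for the large subunit (0.682 and 0.574), and above Flox 3 and Flox 4 for the small (0.412, 0.319 and 0.411).

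**Figure D3:**
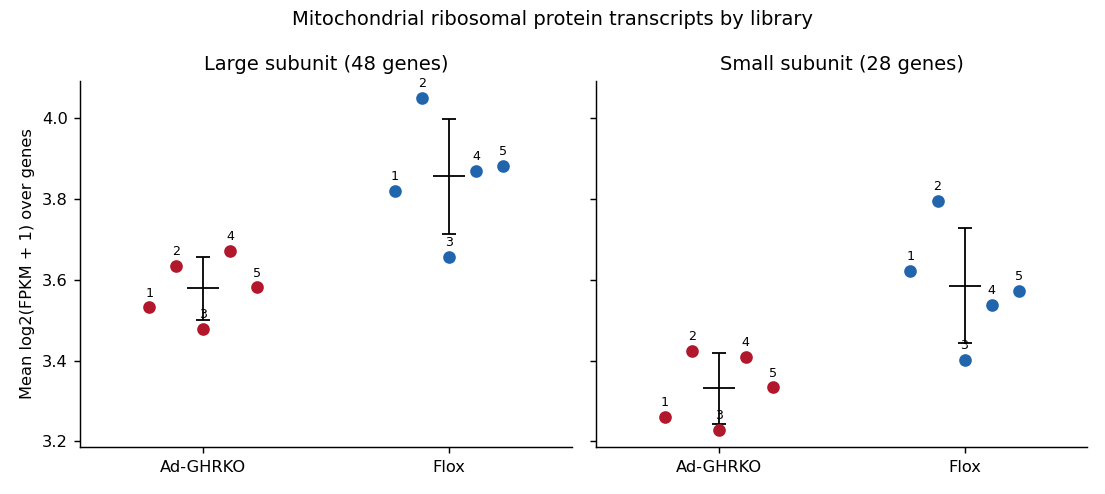
Mean log2(FPKM + 1) over the 48 large subunit genes (left) and the 28 small subunit genes tested (right) in each library, Ad-GHRKO in red and Flox in blue, numbered by library, with the mean and SD of each genotype. Flox 2 is the highest library and Ad-GHRKO 3 the lowest in both panels, and Flox 3 reaches the Ad-GHRKO range.

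Large subunit transcripts took 1428 ± 82.1 RPM (reads scaled to the library total) in Ad-GHRKO and 1775 ± 181 RPM in Flox, and small subunit transcripts took 736 ± 56.5 RPM in Ad-GHRKO and 929 ± 118 RPM in Flox (SD, n = 5 each). The large subunit level minus the small subunit level ran from 0.20 in Flox 1 to 0.33 in Flox 4 and was 0.25 ± 0.02 in Ad-GHRKO and 0.27 ± 0.05 in Flox on the log2 scale. Flox 2 was the highest of the 10 libraries for 28 of 48 large and 18 of 28 small subunit genes, and Flox 5 for 12 large and 7 small. The lowest library was Ad-GHRKO 1 for 20 large and 11 small subunit genes, Ad-GHRKO 3 for 15 large and 8 small, and Ad-GHRKO 5 for 10 large and 5 small.

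The medians moved in both directions when single Flox libraries were left out. The median log2 change was -0.20 for the large subunit and -0.22 for the small subunit without Flox 2, the highest library, and -0.34 for the large and -0.33 for the small without Flox 3, the lowest Flox library. The summed B cell marker level was also highest in Flox 2, with ranges of 286 to 928 FPKM in Ad-GHRKO and 412 to 1286 FPKM in Flox over 8 markers, and their part in the result was not tested. Without the 3 muscle-rich libraries the medians were -0.35 for both subunits, and 5 large and 6 small subunit genes were called lower, against 3.12% of all genes. Those called included Mrpl12, Mrpl14, Mrpl52, Mrps12, Mrps15, Mrps16, Mrps21, Mrps24 and Mrps26. Without Ad-GHRKO 1 alone, 7 large and 4 small subunit genes were called lower, among them Mrpl12, Mrps15 and Mrps12, against 3.18% of all genes. With all libraries it was 1.42%, so more genes were called over the whole table as well.

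Several properties of the members varied with the size of the change. Transcript length moved with the genotype difference over the whole table: cut into 4 equal classes by exon length, all genes tested had a median log2 change of -0.09 in the shortest class and 0.11 in the longest. The members have a median exon length of 2394 bases, against 3905.5 for all genes tested. With the trend of each library on exon length removed, the medians were -0.25 for both subunits, and the genes called lower were Mrpl17, Mrps35 and Mrps5 in place of Mrpl12 and Mrps15, with 2.23% of all genes called lower. Across the 76 members, which share the same libraries, the Pearson correlation of the log2 change was 0.27 with log2 exon length, -0.44 with mean level and -0.25 with GC content. The log2(FPKM + 1) scale understates the change of low genes, so the correlation with level is partly set by the scale. Members with longer exons were also lower, with a median of 6.65 FPKM, against 21.4 FPKM for those under the median exon length. The correlations cannot be read apart from this.

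**Figure D4:**
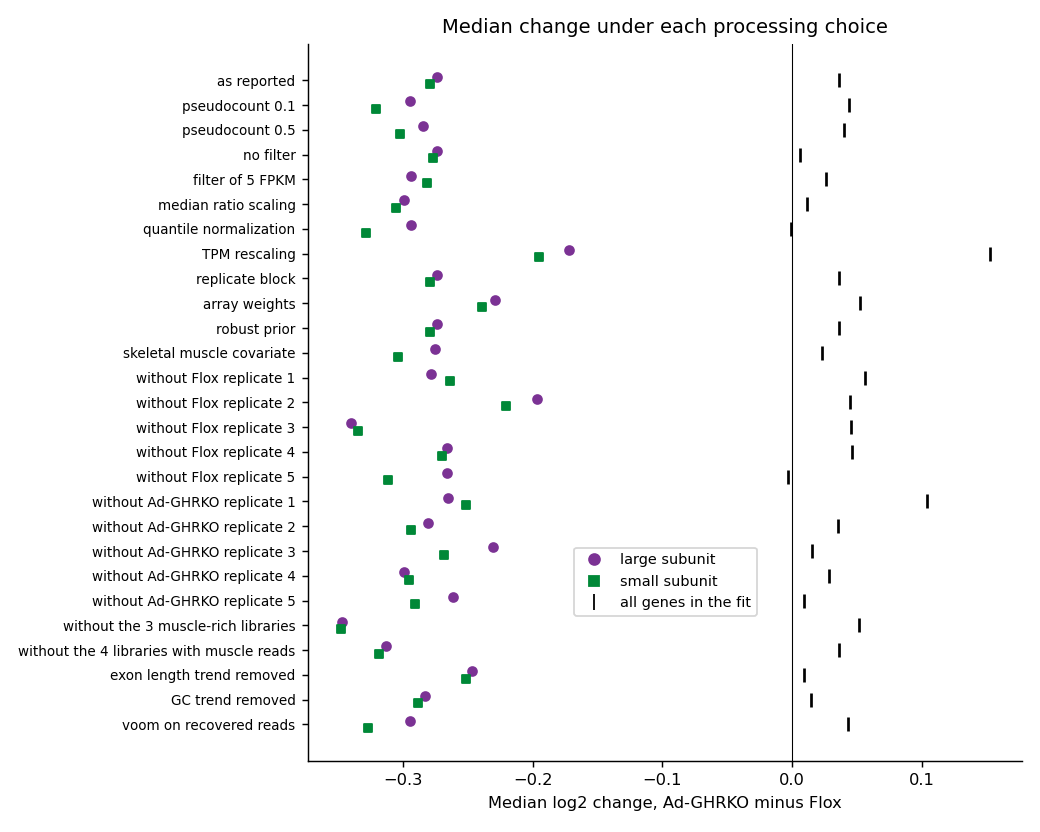
Median log2 change, Ad-GHRKO over Flox, of large subunit genes (purple circles), small subunit genes (green squares) and all genes in the fit (black ticks) as reported and under 26 other processing choices, a row each. The subunit medians lie between -0.35 and -0.17 in every row, and the ticks of all genes lie to their right in every row.

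Marker levels of other cell types were compared in the same libraries. Summed adipocyte markers (9 genes) ran from 3428 to 9758 FPKM in Ad-GHRKO, lowest in Ad-GHRKO 1, and from 6873 to 10999 FPKM in Flox. Macrophage markers (7 genes) ran from 832 to 2289 FPKM in Ad-GHRKO and 550 to 1731 FPKM in Flox, and fibroblast and progenitor markers (6 genes) from 355 to 888 FPKM in Ad-GHRKO and 376 to 1060 FPKM in Flox. Endothelial markers (5 genes) ran from 80.3 to 185 FPKM in Ad-GHRKO and 75.4 to 161 FPKM in Flox. Epithelial markers (8 genes) were low, from 0.485 to 7.29 FPKM in Ad-GHRKO and 0.879 to 6.15 FPKM in Flox, and Epcam, Krt5, Krt14, Cdh1 and Csn3 were listed at 0 in some libraries. Muscle markers (26 genes) ran from 66.4 to 67738 FPKM in Ad-GHRKO and 32.4 to 39137 FPKM in Flox, with Ckm, Myh2, Myh4, Myh7, Tnnc2, Tnni1 and Pvalb at 0 in some libraries. The ranges of these sums, to which abundant genes contribute most, overlapped between genotypes for every list. Gene by gene, none of the markers tested was called, but the log2 changes of some lists shared a sign. All 7 macrophage markers had positive changes (median 0.46), as did all 6 fibroblast and progenitor markers (median 0.28), and all 6 B cell markers tested had negative changes (median -0.46). The B cell markers below the filter differed in direction. Cd22 averaged 0.759 FPKM in Ad-GHRKO and 0.512 FPKM in Flox, and Ms4a1 averaged 0.393 FPKM in Ad-GHRKO and 0.571 FPKM in Flox. Of the 9 adipocyte markers, 7 had negative changes and the median was -0.27. Adipoq (adiponectin) had a log2 change of -1.01 (adjusted p = 0.117) and Retn (resistin) one of -1.33 (adjusted p = 0.0550), each with every Ad-GHRKO library below every Flox library, while Lep (leptin) had 1.35 (adjusted p = 0.115). Of the other lists, 3 of 5 endothelial and 5 of 6 muscle markers tested had negative changes, as did the 1 epithelial marker tested. Whether these marker differences move with the members across libraries was not tested, nor was their part in the member changes.

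The other genes of mitochondrial translation were then set beside the members, by list. Of 5 further ribosomal proteins without an Mrp symbol, Gadd45gip1 was below the filter with 0.149 to 0.439 FPKM in Ad-GHRKO and 0.292 to 0.581 FPKM in Flox. The other 4 did not pass the test: Aurkaip1 had a log2 change of -0.27, Dap3 one of -0.14, Chchd1 one of -0.11 and Ptcd3 one of 0.01. The 12 translation factors had a median log2 change of -0.08 with 9 negative and none called. Tufm, the elongation factor that brings aminoacyl-tRNA to the ribosome, had the smallest p among them, with 49.0, 36.3, 34.3, 41.3 and 28.8 FPKM in Ad-GHRKO libraries, against 47.3, 57.4, 52.6, 51.9 and 69.5 FPKM in Flox libraries. Ad-GHRKO 1 overlapped the Flox range, and the log2 change of Tufm was -0.55 (adjusted p = 0.117). Hemk1, a methyltransferase of release factors, followed with -0.50, and Mrrf, the ribosome recycling factor, with -0.27.

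Of the mitochondrial aminoacyl-tRNA synthetase and amidotransferase genes, 19 were tested, none was called, 17 were negative and the median log2 change was -0.12. The smallest p belonged to Vars2 (-0.40), Sars2 (-0.31) and Tars2 (-0.23), which charge tRNAs with valine, serine and threonine. Among 26 genes of ribosome assembly and ribosomal RNA modification, none was called, 21 were negative and the median was -0.11. Mrm2 and Mrm3, which methylate the large ribosomal RNA, had log2 changes of -0.41 and -0.32, and Noa1, a GTPase of assembly, one of -0.22. The 20 genes of mitochondrial DNA replication, transcription and RNA processing had a median of -0.07 with 12 negative and none called. There Mgme1, a nuclease of mitochondrial DNA, averaged 4.996 ± 0.540 FPKM in Ad-GHRKO and 7.20 ± 0.835 FPKM in Flox (SD, n = 5 each) with a log2 change of -0.45 (adjusted p = 0.0734), Hsd17b10 had -0.48 and Twnk, the replicative helicase, -0.28.

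Regulators of mitochondrial biogenesis went in both directions. Of 7 tested, none was called, 2 were negative and the median log2 change was 0.14. Ppargc1a, also on this list, missed the filter and was not tested. It averaged 0.819 ± 0.698 FPKM in Ad-GHRKO and 1.22 ± 0.622 FPKM in Flox (SD, n = 5 each). Ppargc1b, a coactivator of nuclear genes for mitochondria, had 1.04, 1.07, 0.730, 0.663 and 0.566 FPKM in Ad-GHRKO libraries, against 1.63, 1.70, 3.31, 1.42 and 1.70 FPKM in Flox libraries. Its groups did not overlap, Flox 3 stood highest, and its log2 change was -0.68 (adjusted p = 0.0629). Esrra, a nuclear receptor that works with such coactivators, had a change of -0.41 and Pprc1, a related coactivator, one of 0.32.

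The complexes of the respiratory chain, apart from complex II, are completed by the products of these ribosomes. Nuclear genes of the chain, complex II included, had a median change farther from 0 than that of the ribosomal proteins. Of 74 tested, 73 were negative, the median log2 change was -0.50, 55 (74.3%) had an unadjusted p under 0.05, and 7 fell after adjustment with none higher, against 8.49% of all genes lower at an unadjusted p under 0.05 and 1.42% lower after adjustment. The 7 were Cox5b, Uqcrh, Atp5k, Uqcrq, Ndufv3, Cox4i1 and Cox6b1, all subunits of complexes I, III, IV or ATP synthase. Cox5b averaged 72.1 ± 11.7 FPKM in Ad-GHRKO and 124 ± 9.19 FPKM in Flox (SD, n = 5 each), a log2 change of -0.79 (adjusted p = 0.0196). Levels of these genes were higher too, with a median over genes of 63.8 FPKM, against 12.0 FPKM for the members, and the difference between the lists was not tested.

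**Figure D5:**
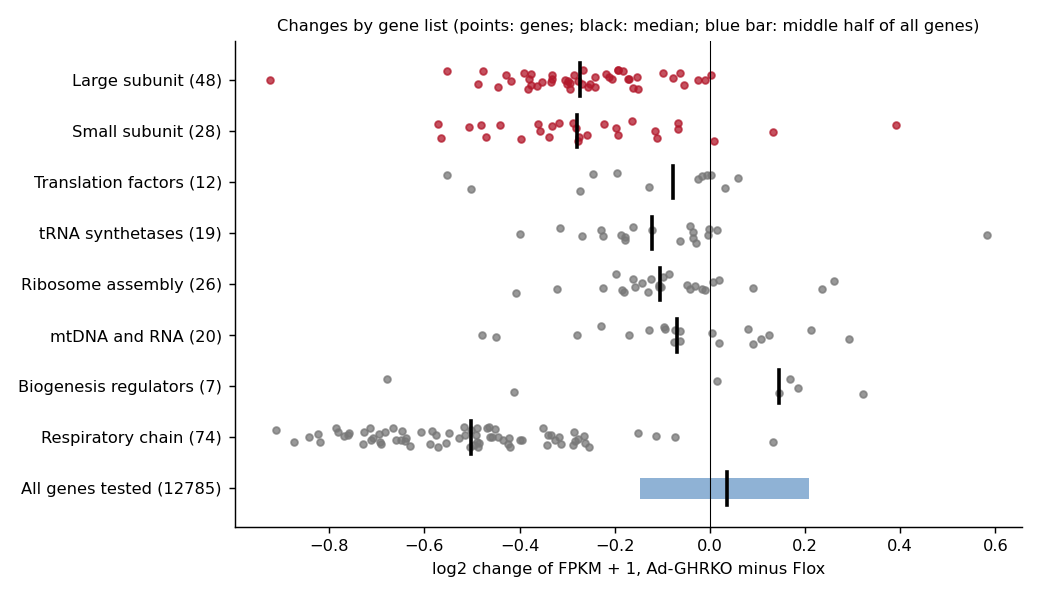
Log2 change of FPKM + 1 in Ad-GHRKO over Flox for each tested gene of the 2 ribosomal subunits and 6 related lists, with the number of genes in brackets, the median as a black line, and the range between the quartiles of all 12785 genes as a blue bar. The medians are -0.27 and -0.28 for the ribosomal subunits, -0.50 for the respiratory chain and 0.14 for biogenesis regulators.

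The ribosomal RNAs that these proteins bind are made in the mitochondrion. The small ribosomal RNA mt-Rnr1 had 392, 137, 140.4, 133 and 509.7 FPKM in Ad-GHRKO libraries, against 227, 170.0, 189, 150.2 and 112 FPKM in Flox libraries. The large ribosomal RNA mt-Rnr2 had 388, 108, 134, 117 and 405 FPKM in Ad-GHRKO libraries, against 191, 126, 134, 104 and 78.3 FPKM in Flox libraries. Ad-GHRKO 1 and Ad-GHRKO 5 were high for both and the other Ad-GHRKO libraries lay within the Flox range. Their log2 changes were 0.41 (adjusted p = 0.675) and 0.66 (adjusted p = 0.476), and since libraries were made from polyadenylated RNA these values do not measure total ribosomal RNA.

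Motifs of transcription factors known for nuclear genes of mitochondria were counted in RefSeq promoter windows, from 250 bases before to 50 bases after each start, on both strands. The letters were GCGCA and GCGC with any base between them for NRF1, CCGGAAG for ETS factors (the family of GABPA) and AAGATGGC for YY1, and no matches overlapped. Of the 77 members, 68 had 74 windows in the table. The NRF1 motif was in 13 of the 74 (17.6%), against 6.38% of the windows of protein-coding genes and 4.60% of all windows. The ETS motif was in 25 (33.8%), against 11.6% of protein-coding and 8.86% of all windows, and the YY1 motif in 12 (16.2%), against 3.05% of protein-coding and 2.75% of all windows. GC content was close to that of other genes, with medians of 58.5% for the members, 56.3% for protein-coding genes and 52.7% for all windows.

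At least 1 of the 3 motifs was found for 42 of the 68 members, Mrpl12 and Mrpl52 among them, and 26 had none, Mrps15 among them. The median log2 change was -0.33 for 13 members with the NRF1 motif and -0.28 for 54 without it. It was -0.29 for 25 with the ETS motif and -0.25 for 42 without it, and -0.36 for 12 with the YY1 motif and -0.28 for 55 without it. Counts of negative changes were 13 of 13 with the NRF1 motif and 50 of 54 without it, and 12 of 12 with YY1 and 51 of 55 without it. For ETS the share was lower with the motif, 22 of 25, against 41 of 42 without it. These are descriptions of letters in the windows, of medians and of counts, and the differences between them were not tested.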

How the data were processed

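The authors deposited 1 table of FPKM values per gene and library, per the file headers. Polyadenylated RNA was fragmented and copied with random primers, per the labels' protocols. The sources used here name no aligner or counting tool and do not say whether strand was used. The submitters' processing notes name GRCm39, but of 31253 identifiers found in GENCODE release M21, 31109 have its GRCm38 coordinates, so coordinates are read as GRCm38. Whole reads were recovered from the FPKM values and exon lengths for at least 99.43% of values per library (tolerance 0.01), which gave between 14.6 M and 19.2 M reads (M, mega) for each library. At the mean depth, 1 FPKM on 1 kilobase is about 17.9 reads, and low genes are less precise. FPKM is relative, so abundant transcripts lower the others.

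A gene was tested if 5 or more libraries had 1 FPKM or more, which held for 12785. The two-sided test was that of limma 3.58.1 (R 4.3.3), run on values of log2(FPKM + 1) with its variance prior following the mean level, and p-values were adjusted over all these genes by Benjamini-Hochberg with a threshold of 0.05. This scale understates the change of low genes. Python 3.11.15, pandas 2.3.3, scipy 1.17.1 and matplotlib 3.10.9 were used for permutation tests, counts and plots. The fit was also run on counts simulated from the Flox means, with the same relative spread for every gene. That simulation held no muscle differences and no exon length trend between libraries, so it says nothing on how these affect the calls. Members and gene lists were chosen with earlier results of these data known. The named members are Mrpl12, Mrps12, those past the threshold, the member that missed the filter on low values, those with the smallest p, the highest and lowest levels and the highest changes in each subunit, and those whose symbol does not give the subunit. From each other list every called gene is named, or the 3 with the smallest p. Mrpl40, Mrpl1, Mrps5, Mrps27, Mrpl42, Mrpl46, Mrpl51, Mrpl32, Mrpl23 and Ppargc1a fall outside this rule and were named after their values were seen. Alternatives were other pseudocounts (0.1, 0.5), filters, scalings, a replicate block, library weights, a robust prior, a muscle covariate, omission of libraries, and removal of length or GC trends. Limma voom on the recovered reads was added after seeing the data and called 271 genes, against 280 in the test above. No 2 libraries held identical values.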

Additional observations from a re-analysis of the deposited data

Results flagged for a closer look

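In 5 of 158 groups of 5 libraries (77 genes and the 2 subunit levels in each genotype), the highest library stood apart from the rest by Dixon's test at 95%; chance gives about 1 in 20. In Ad-GHRKO 1, Mrpl42 stood at 25.1 FPKM with the next Ad-GHRKO library at 12.4 FPKM, Mrpl51 at 18.9 FPKM with the next at 13.6 FPKM, and Mrpl23 at 9.46 FPKM with the next at 6.25 FPKM. Ad-GHRKO 1 is the library with the largest share of muscle reads. Mrpl42 was also high in the Flox libraries with muscle reads, at 25.7 FPKM in Flox 5 and 19.9 FPKM in Flox 3, and between 11.4 and 16.9 FPKM in the remaining libraries. Mrpl51 had 21.3 FPKM in Flox 5, its highest Flox library, and 14.6 FPKM in Flox 3, its lowest. Mrpl23 had 9.08 FPKM in Flox 5 and 8.35 FPKM in Flox 3, both below the 9.18 FPKM of Flox 1. The part of muscle in these values was not tested. Mrpl32 stood at 4.67 FPKM in Ad-GHRKO 5 with the next Ad-GHRKO library at 3.04 FPKM, and Mrpl46 at 15.2 FPKM in Flox 2 with the next Flox library at 10.9 FPKM.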

How the results depend on the processing

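The median log2 change of both subunits was negative under all 26 alternatives, from -0.35 to -0.17 for the large and from -0.35 to -0.20 for the small subunit, and no member was called higher under any. Of the 72 members with a negative change, 64 were negative in every fit that held them. The number of calls changed with the setting. The 1 large and 1 small subunit gene called lower (1.42% of all genes called lower) became 0 and 0 with median ratio scaling (2.39%), TPM rescaling (0.727%) or the replicate block (0.469%), 0 and 1 without a filter (0.259%), 2 and 2 with a filter of 5 FPKM (2.19%), 11 and 6 with array weights (5.41%), 6 and 6 with the muscle covariate (4.04%), 5 and 6 with the 3 muscle-rich libraries left out (3.12%), and 4 and 2 with Ad-GHRKO 5 left out as well (2.45%). The counts were 1 and 2 with quantile normalization (2.67%), with the exon length trend removed (2.23%) and with voom (1.33%). Leaving out 1 library gave 0 to 7 large and 0 to 4 small subunit genes (0.587% to 3.18%). TPM rescaling moved the median of all genes by 0.12, and relative to it the subunit medians were -0.32 and -0.35. Mrpl12 missed the threshold with log2 changes of -0.92 (no filter and replicate block), -0.95 (median ratio and quantile), -0.84 (TPM), -0.82 (length trend removed) and -0.94 (GC trend removed), and lay between -1.03 and -0.77 when 1 library was left out. Mrps15 missed it at -0.59 (median ratio), -0.46 (TPM), -0.56 (replicate block and without the 4 libraries) and -0.47 (length trend removed). Mrps12 passed it with array weights (-0.44) and without the 3 muscle-rich libraries (-0.60), and lay between -0.54 and -0.39 when 1 library was left out.

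Values near 0 changed sign. Mrpl33 was -0.017 with median ratio scaling, -0.020 with the muscle covariate, -0.040 with quantile normalization, -0.039 and -0.073 with the 3 or 4 libraries left out, -0.0019 with array weights, -0.086 and -0.0026 with the length or GC trend removed, and -0.050 to 0.073 without 1 library. Mrps18b was -0.016 with median ratio scaling, -0.050 with quantile normalization, -0.0033 with the GC trend removed and -0.077 to 0.073 without 1 library. Mrps36 was 0.0061 with the length trend removed. Mrps6 was -0.15 and -0.12 with the same 3 or 4 libraries left out, and -0.081 to 0.39 without 1 library. The causes were not tested. Deviations from the genotype means of libraries with the same number had correlations of -0.49, 0.39, -0.03, 0.28 and -0.26, so these libraries were taken to share only a number, and the replicate block gave 85 called genes in the whole table, against 280. In that check, 1 of the 5 Ad-GHRKO libraries correlated best with its own number. Depth limits Mrps10 and other members near 1 FPKM.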
